A study of Homo sapiens with 3 samples.

Results

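The genes described here encode the intraflagellar transport (IFT) trains, the BBSome and the transition zone of the primary cilium, 38 genes chosen by name because their proteins belong to these assemblies. All 38 were found by symbol among the 58735 genes of the H660 table. H660 is a human line of neuroendocrine prostate cancer (NEPC). The compound JG231 inhibits the chaperone HSP70 at an allosteric site. Parental H660 cells were treated for 24 h with the vehicle DMSO, with 2.5 μM JG231 or with 5 μM JG231, and RNA-seq gave 1 library per condition. No condition had a replicate, so genes are given without standard deviation or p-value, and each difference compares 2 libraries. Values are FPKM, which are fragment numbers scaled to transcript length and library size. Where 3 values follow each other they are in the order DMSO, 2.5 μM, 5 μM. Fewer cells of a kind and less RNA per cell cannot be told apart in such bulk samples.

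The primary cilium is a single antenna-like projection built on a basal body, and in epithelial and neural cells it concentrates receptors such as those of the Hedgehog pathway. Its parts are carried by IFT trains, in which the IFT-B complex travels toward the tip with a kinesin and the IFT-A complex serves the return with cytoplasmic dynein and the entry of membrane proteins. The BBSome is a coat-like adaptor that rides on these trains and removes membrane proteins from the cilium. The transition zone is the gate at the ciliary base, made of the Meckel syndrome (MKS) and nephronophthisis (NPHP) modules and CEP290. Most cycling cells assemble the cilium when they leave the cell cycle and take it down before division.

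The regulatory factor X (RFX) proteins, which bind a promoter element called the X-box, are the best known activators of ciliary genes, so the promoters of the genes were searched first. RefSeq windows of 300 bases (250 before to 50 after the start, GRCh38.p14) were matched for 33 of the 38 genes. IFT22, WDR35, BBS9, TMEM67 and TCTN2 had no entry. The X-box was written as GTTNCC, 0 to 3 bases of any kind, then GGNAAC, and searched on both strands. It was found in 4 of 33 windows (12.1%), those of IFT122, ARL6, TCTN1 and TCTN3, beside 260 of 35116 promoters of the same length (0.74%). The 6 letters GTTGCC, which the 4 X-boxes also contain, stood in 14 of 33 windows (42.4%) beside 12.2% of all promoters. The E-box CACGTG, the element bound by MYC family proteins such as N-Myc, stood in 1 of 33, that of IFT81, beside 7.26% of all promoters. These are matches of letters and not measured binding sites.
The stretches around the 4 X-boxes are shown because this element was commoner in these genes than in promoters at large and was not used to choose them. Each is written 5′ to 3′ on the strand of its gene, with the X-box letters in capitals, and covers chr3:129440167-129440241 (plus strand) for IFT122, chr3:97764689-97764762 (plus strand) for ARL6, chr12:110614084-110614156 (plus strand) for TCTN1 and chr10:95694115-95694177 (minus strand) for TCTN3.
IFT122: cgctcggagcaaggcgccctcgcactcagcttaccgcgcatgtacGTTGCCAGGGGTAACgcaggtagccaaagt
ARL6: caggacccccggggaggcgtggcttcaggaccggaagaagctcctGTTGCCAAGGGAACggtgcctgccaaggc
TCTN1: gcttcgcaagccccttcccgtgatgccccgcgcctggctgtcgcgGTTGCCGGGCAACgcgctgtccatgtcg
TCTN3: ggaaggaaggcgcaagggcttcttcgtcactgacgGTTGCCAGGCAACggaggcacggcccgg
The X-box began 12 bases before the start in IFT122, 24 bases before it in ARL6, at base 1 in TCTN1 and 215 bases before the start in TCTN3.

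The libraries held 16.1 M fragments in DMSO, 20.4 M at 2.5 μM and 24.1 M at 5 μM, as read from the steps of the FPKM values. All 7 neuroendocrine markers examined were above 0 in every library, with a summed level of 443, 205 and 181 FPKM, while the 5 luminal prostate markers summed to 0.47, 0.33 and 0.12 FPKM with KLK2 at 0, the 4 fibroblast and endothelial markers to 0.84, 0.81 and 1.32 FPKM, and the 3 leukocyte markers were at 0. The part of the neuroendocrine shift in the changes below was not tested. The sample labels call the cells prostatic adenocarcinoma. Mitochondrial genes took 39.8% of the FPKM sum in DMSO, 24.1% at 2.5 μM and 28.8% at 5 μM, and rescaling without them and small RNA genes moved the median change of protein-coding genes to -0.40 at 5 μM and -0.28 at 2.5 μM on the log2 scale.

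In vehicle-treated H660 cells the 38 genes were expressed at low to moderate levels. Their FPKM in DMSO ran from 0.25 for CC2D2A to 15.1 for IFT57 with a median of 4.84, and 35 of 38 exceeded 1. With JG231 the median FPKM came to 3.22 (2.5 μM) and 3.17 (5 μM), while the sum over the genes went from 186 FPKM in DMSO to 191 and 196. On the deposited scale most genes were thus lower with JG231 while the sum was not. Leaving mitochondrial and small RNA genes out of the scaling lowers every JG231 value against DMSO, and the sum with them, so the course of the sum depends on the scaling. The gain on the deposited scale lay in IFT20, IFT52 and IFT57, which together had 30.5, 73.7 and 73.1 FPKM, while the other 9 IFT-B genes summed to 44.4, 32.4 and 34.7 FPKM and the IFT-B median was 5.54, 3.76 and 3.77. IFT-B made up 40.3% of the sum in DMSO, 55.7% at 2.5 μM and 54.9% at 5 μM, and the transition zone made up 23.4%, 16.3% and 16.6%.

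**Figure D1:**
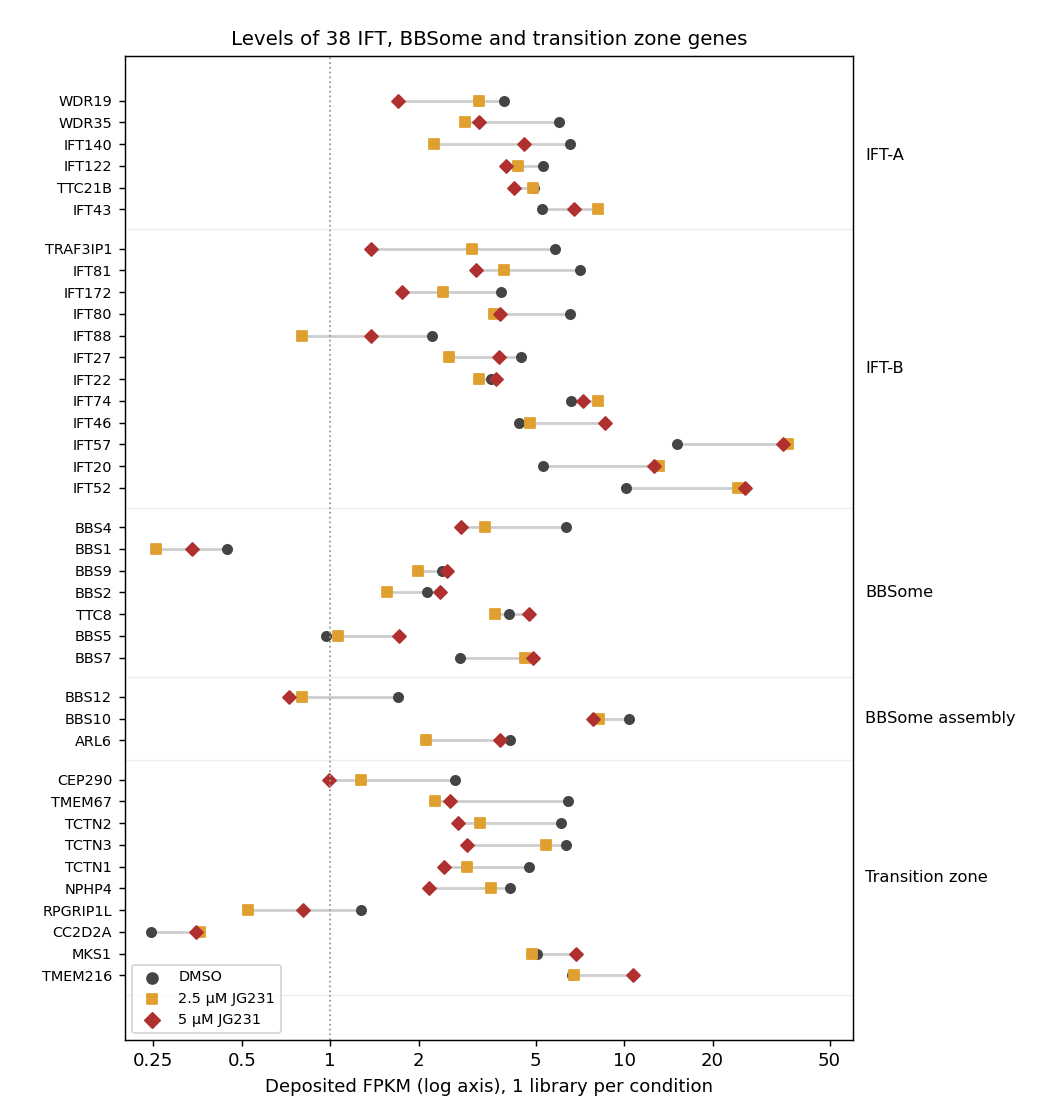
Deposited FPKM (log axis) of each of the 38 genes in the DMSO, 2.5 μM and 5 μM JG231 libraries, 1 point per library, grouped by complex, with a dotted line at 1 FPKM. IFT57, IFT52 and IFT20 lie to the right of their DMSO points at both doses, and most transition zone genes lie to the left.

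Changes were computed as log2 of FPKM plus 0.1 against DMSO, a scale that understates the change of low genes. A gene was counted as changed when it exceeded 1 FPKM in either library compared and its log2 change exceeded 0.25 in size. Offset and threshold follow the methods of the study. Its filter also let in genes that appear from 0 or go to 0, and those that did not exceed 1 FPKM were left out here, so that the genes tested and the background shares are not those of its filter. None of the 38 genes was at 0 in any library. BBS1 and CC2D2A did not pass this filter at either dose, which left 36 genes. BBS12 and RPGRIP1L passed it only through DMSO, as did IFT88 at 2.5 μM and CEP290 at 5 μM, and BBS5 passed only through JG231. The direction of such genes is partly set by the filter, in the background shares too. At 5 μM, 9 of 36 were higher (25.0%), beside 36.5% of all 15765 genes tested, and 19 of 36 were lower (52.8%), beside 45.1%. At 2.5 μM, 6 of 36 were higher (16.7%), beside 36.4% of all genes, and 21 of 36 were lower (58.3%), beside 43.4%. Among protein-coding genes the higher shares were 38% at 5 μM and 38.4% at 2.5 μM, and the lower shares 39.6% and 37.1%. The 36 genes had median log2 changes of -0.41 under 5 μM and -0.31 under 2.5 μM, where that of protein-coding genes was -0.01 and 0.02. Past a log2 change of 1, 3 genes were higher at 5 μM (8.33%), beside 14.7% of all and 12.5% of protein-coding genes, and 10 were lower (27.8%), beside 24.3% and 15.3%. At 2.5 μM 3 were higher past 1, beside 12.9% of all and 10.7% of protein-coding genes, and 6 were lower (16.7%), beside 21.7% and 12.3%.

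The single DMSO library served as the base for each dose. At both doses 5 genes were higher past 0.25, namely IFT20, IFT43, IFT52, IFT57 and BBS7, beside 27.9% of all and 31.3% of protein-coding genes, and 17 of 36 were lower, beside 38.6% and 31.6%. No gene was past 0.25 in opposite directions. The spread between the JG231 libraries, a robust standard deviation over the 500 protein-coding genes of most similar FPKM, was used in place of a replicate error and also contains any true difference between the doses. By this measure 25 of 36 changes at 5 μM (9 of them increases) and 23 of 36 at 2.5 μM (6 increases) were larger than the spread. Of protein-coding genes 34.2% were higher and 33.1% lower by more than their spread at 5 μM, and 33.7% and 30% at 2.5 μM. Intervals given below are 95% intervals for counting error alone, and fragments copied by PCR would make them too narrow.

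**Figure D2:**
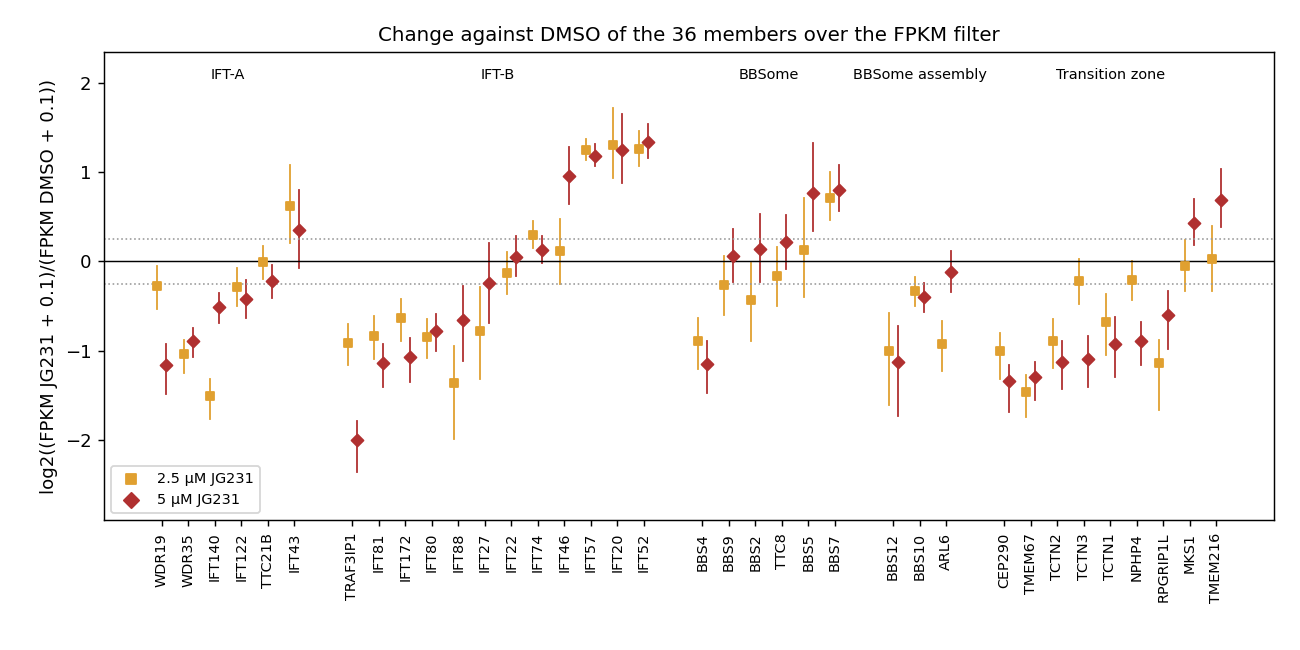
Log2 change of FPKM plus 0.1 against DMSO for the 36 genes over the filter, with 2.5 μM as squares and 5 μM as diamonds, 95% counting intervals as vertical lines and dotted lines at -0.25 and 0.25. IFT57, IFT20 and IFT52 lie above 1 at both doses, and TRAF3IP1 at 5 μM is the lowest point at -2.00.

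Counts for single complexes and lists below stand beside the shares over all genes given above, 36.5% higher and 45.1% lower at 5 μM and 36.4% and 43.4% at 2.5 μM, and with few genes in each they are descriptions. Within IFT-B the genes split. IFT20, IFT52 and IFT57 were more than 2-fold higher at both doses (log2 values of 0.81 to 1.02 with mitochondrial and small RNA genes left out of the scaling), while TRAF3IP1, IFT81, IFT172, IFT80 and IFT88 were lower at both. IFT-B has a core that holds IFT52, IFT88, IFT46, IFT74, IFT81, IFT22 and IFT27 and a peripheral part that holds IFT20, IFT57, IFT80, IFT172 and TRAF3IP1, and each part had members on both sides. Of the 12 genes, 4 were higher and 5 lower at 5 μM (median -0.09), and 4 were higher and 6 lower at 2.5 μM (median -0.38). With the length trend removed 5 were higher and 6 lower at 5 μM, and 4 and 6 at 2.5 μM.
IFT52 (ENSG00000101052, chromosome 20, 43590937 to 43647299 on GRCh38), which joins the core subunits, had 10.1 FPKM under vehicle, 24.4 under 2.5 μM and 25.8 under 5 μM. Both JG231 libraries were far above DMSO and close to each other. On the log2 scale this was 1.26 under 2.5 μM (counting interval 1.08 to 1.47) and 1.34 under 5 μM (1.16 to 1.54), where the spread was 0.26.
IFT57 (ENSG00000114446, chromosome 3, 108160812 to 108222435) had the highest level of all 38 genes in each library. It had 15.1 FPKM under vehicle, 36.1 under 2.5 μM and 34.6 under 5 μM. Its log2 changes were 1.25 and 1.19 where the spread was 0.25, and the interval at 5 μM ran from 1.07 to 1.31.
IFT20 (ENSG00000109083, chromosome 17, 28328325 to 28335489), a small subunit that also sits at the Golgi and helps sort membrane proteins for the cilium, had 5.28 FPKM under vehicle, 13.2 under 2.5 μM and 12.7 under 5 μM. Its log2 changes were 1.30 and 1.25 where the spread was 0.31. Its canonical transcript is short, at 860 bases, and exons of TMEM97 on the other strand cover 11.2% of its exon bases. With the general trend of transcript length removed, its change at 5 μM was 0.63, whereas that of IFT57 was 1.12 and that of IFT52 was 0.99.
IFT46, a core subunit, had 4.40 FPKM under vehicle, 4.77 under 2.5 μM and 8.62 under 5 μM. It was therefore higher at the higher dose only, with a log2 change of 0.12 at 2.5 μM and 0.95 at 5 μM where the spread was 0.37.

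TRAF3IP1 (ENSG00000204104, chromosome 2, 238320441 to 238400897), a microtubule-binding subunit of the peripheral part, was the furthest below DMSO of the 36 genes at 5 μM. It had 5.80 FPKM under vehicle, 3.04 under 2.5 μM and 1.38 under 5 μM, and it decreased from each library to the next. The log2 values were -0.91 under 2.5 μM (-1.16 to -0.70) and -2.00 under 5 μM (-2.37 to -1.79), where the spread was 0.43. Between the doses it differed by -1.09 on the log2 scale, the only one of the 34 genes tested between the doses that passed 1.
IFT81, which binds tubulin together with IFT74, had 7.05 FPKM under vehicle, 3.91 under 2.5 μM and 3.14 under 5 μM, with changes of -0.84 and -1.14 on the log2 scale. IFT172, the largest IFT-B subunit, had 3.80, 2.41 and 1.76 FPKM, changes of -0.64 and -1.07 on the log2 scale. Both were lower in the order of dose, by more than their spreads of 0.40 and 0.50.
IFT88, the subunit whose loss in mice gave the classical model of missing cilia, was lowest at 2.5 μM, with 2.22 FPKM under vehicle, 0.80 under 2.5 μM and 1.37 under 5 μM. Its log2 change of -1.36 at 2.5 μM exceeded a spread of 0.65, and that of -0.65 at 5 μM was about equal to it. IFT80, a peripheral subunit mutated in a skeletal ciliopathy, had 6.56 FPKM under vehicle, 3.61 under 2.5 μM and 3.78 under 5 μM, although exons of other genes, among them SMC4, cover 31.0% of its exon bases. IFT27, a small GTPase, had 4.45, 2.54 and 3.75 FPKM, lower at 2.5 μM by 0.78 on the log2 scale and within 0.25 at 5 μM, where its change was -0.24. Its canonical transcript has 1073 bases, and with the length trend removed it was lower at both doses, at -1.17 and -0.78. IFT74 had 6.59, 8.12 and 7.22 FPKM. Its change of 0.30 at 2.5 μM (counting interval 0.15 to 0.46) was about equal to its spread, and at 5 μM it was 0.13, or 0.37 and past 0.25 with the length trend removed. IFT22, a small GTPase of the core, stayed within 0.25 at both doses and had 3.52, 3.21 and 3.66 FPKM, changes of -0.13 and 0.06, and an antisense gene covers 59.0% of its exon bases.

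Ratios between subunits within a library do not depend on the scaling between libraries, so pairs of IFT-B subunits known to contact each other were compared. The pairs were chosen after the values had been seen. IFT20 and TRAF3IP1 bind each other as a dimer, and the FPKM ratio of IFT20 to TRAF3IP1 was 0.91 in DMSO, 4.33 at 2.5 μM and 9.20 at 5 μM. For IFT52 to IFT88 the ratio was 4.57 in DMSO, 30.4 at 2.5 μM and 18.8 at 5 μM. For IFT74 to IFT81, another dimer, it was 0.93, 2.08 and 2.30. For IFT57 to CLUAP1, which also pair, it was 7.0, 14.1 and 15.9. The ratio of IFT27 to its partner HSPB11 moved least, from 0.32 in DMSO to 0.23 under 2.5 μM and 0.29 under 5 μM. FPKM depends on the transcript models used for length, and the general trend with transcript length also enters these ratios, since IFT20 has 860 bases and TRAF3IP1 has 4199. On the log2 scale with the pseudocount, the ratio of IFT20 to TRAF3IP1 was 3.25 higher at 5 μM than in DMSO, and 2.51 with the length trend removed. For IFT52 to IFT88 these values were 1.99 and 1.76, for IFT74 to IFT81 1.27 and 1.57, for IFT57 to CLUAP1 1.18 and 1.0 and for IFT27 to HSPB11 -0.13 and 0.01.

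**Figure D3:**
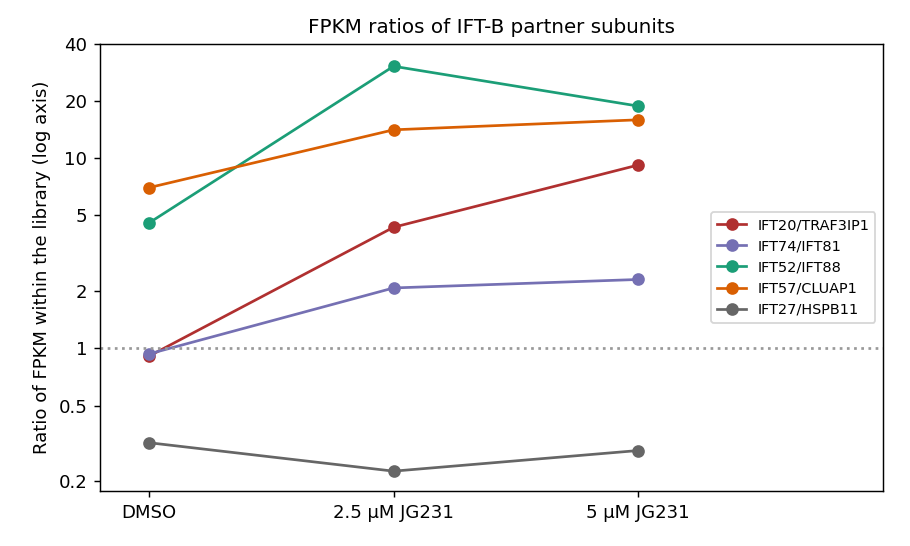
Ratio of the FPKM values of contacting IFT-B subunits within each library (log axis), 1 value per library, in DMSO, 2.5 μM and 5 μM JG231. The ratio of IFT20 to TRAF3IP1 goes from 0.91 to 9.20, and that of IFT27 to HSPB11 stays between 0.23 and 0.32.

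IFT-A was mostly lower. At each dose 4 of its 6 genes were lower and 1, IFT43, was higher, with medians of -0.46 (5 μM) and -0.28 (2.5 μM). None was higher at either dose with the length trend removed, while 5 (5 μM) and 3 (2.5 μM) were lower. The order of the doses differed from gene to gene.
IFT140, a large IFT-A subunit, had 6.56 FPKM under vehicle, 2.25 under 2.5 μM and 4.57 under 5 μM. Its change of -1.50 at 2.5 μM was the lowest of the 36 genes at that dose (counting interval -1.77 to -1.32, spread 0.41), and at 5 μM it was -0.51. WDR19, a subunit of the IFT-A core, showed the opposite order, with 3.90 FPKM under vehicle, 3.20 under 2.5 μM and 1.70 under 5 μM and changes of -0.28 and -1.16 on the log2 scale where the spread was 0.49. Its change at 2.5 μM was -0.22, within 0.25, with the length trend removed.
WDR35, a peripheral IFT-A subunit, was about equally low in both JG231 libraries, with 6.02 FPKM under vehicle, 2.88 under 2.5 μM and 3.21 under 5 μM, changes of -1.04 and -0.89 on the log2 scale. IFT122, of the core, had 5.31, 4.35 and 3.96 FPKM, changes of -0.28 and -0.42 on the log2 scale, which did not exceed its spread of 0.42. TTC21B, a peripheral subunit, had 4.93, 4.90 and 4.22 FPKM and stayed within 0.25 at both doses.
IFT43, the smallest IFT-A subunit, had 5.27 FPKM under vehicle, 8.18 under 2.5 μM and 6.74 under 5 μM, changes of 0.62 and 0.35 on the log2 scale. The counting interval at 5 μM, -0.08 to 0.80, contained 0. Its canonical transcript, at 816 bases, is the shortest of the 36. With the length trend removed its change was 0.18 at 2.5 μM, within 0.25, and turned to -0.28 at 5 μM. The value at 5 μM turned to -0.03 with mitochondrial and small RNA genes left out of the scaling.

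The BBSome subunits changed in both directions. At 5 μM, 2 of the 6 that passed the filter were higher, 1 was lower and 3 were within 0.25, and at 2.5 μM 1 was higher, 3 were lower and 2 were within it. The medians were 0.18 (5 μM) and -0.21 (2.5 μM), and the first became -0.19 with mitochondrial and small RNA genes left out of the scaling, so no direction is given for the complex.
BBS7 (ENSG00000138686, chromosome 4, 121824329 to 121870487), a propeller-bearing subunit of the core, had 2.77 FPKM under vehicle, 4.61 under 2.5 μM and 4.89 under 5 μM. Both JG231 libraries were above DMSO, by log2 values of 0.72 (0.47 to 1.01) and 0.80 (0.56 to 1.08) where the spread was 0.46. BBS2, which assembles with it, had 2.13, 1.55 and 2.36 FPKM, and the ratio of BBS7 to BBS2 was 1.30 in DMSO, 2.97 at 2.5 μM and 2.07 at 5 μM.
BBS4, a peripheral subunit that targets the complex to centriolar satellites, was the lowest BBSome gene against DMSO, with 6.34 FPKM under vehicle, 3.36 under 2.5 μM and 2.79 under 5 μM. Its changes of -0.90 and -1.15 on the log2 scale exceeded its spread of 0.46. BBS5, which binds phosphoinositides, had 0.97 FPKM under vehicle, 1.07 under 2.5 μM and 1.71 under 5 μM, changes of 0.13 and 0.76 on the log2 scale where the spread was 0.76, and another gene on the same strand covers 23.5% of its exon bases.
BBS9, another core subunit, had 2.40, 1.99 and 2.5 FPKM and TTC8 had 4.07, 3.62 and 4.74, with changes between -0.26 and 0.21 in both genes. With the length trend removed, BBS9 at 2.5 μM came within 0.25, at -0.24, and TTC8 at 2.5 μM went past it, at -0.36. BBS1, which links the BBSome to the GTPase ARL6, had 0.45 FPKM under vehicle, 0.26 under 2.5 μM and 0.34 under 5 μM, under the filter, and other genes cover 68.5% of its exon bases.

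Of the 3 genes that assemble or recruit the BBSome, all were lower at 2.5 μM and 2 at 5 μM. BBS12, a chaperonin-like assembly factor, had 1.70 FPKM under vehicle, 0.80 under 2.5 μM and 0.73 under 5 μM. On the log2 scale it was lower by more than 1 under 5 μM, at -1.12, and stood just past 1 in size under 2.5 μM. These values stood on 53 to 89 fragments per library by the canonical length, and the spread at its level was 0.82. BBS10, a related factor whose gene has 1 annotated transcript, had 10.4, 8.21 and 7.83 FPKM, changes of -0.33 and -0.40 on the log2 scale where the spread was 0.31. ARL6 was lower at 2.5 μM only. It had 4.09 FPKM under vehicle, 2.11 under 2.5 μM and 3.77 under 5 μM, changes of -0.92 and -0.11 on the log2 scale, and its difference between the doses was 0.81 (0.57 to 1.10).

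The transition zone had the lowest median of the complexes at 5 μM, -0.93, with 7 of 9 genes over the filter lower (77.8%, beside 45.1% of all genes) and 2 higher (22.2%, beside 36.5%). At 2.5 μM the median was -0.68, with 5 lower (55.6%, beside 43.4%), none higher (beside 36.4%) and 4 within 0.25. After removal of the length trend, none was higher at either dose, while 6 (5 μM) and 7 (2.5 μM) were lower. The tectonics, transmembrane and secreted proteins of the MKS module, were lower together at 5 μM.
TCTN2 had 6.10 FPKM under vehicle, 3.23 under 2.5 μM and 2.73 under 5 μM, changes of -0.90 and -1.13 on the log2 scale. TCTN1 had 4.74, 2.92 and 2.44 FPKM, changes of -0.68 and -0.93 on the log2 scale. TCTN3 was near its DMSO level at 2.5 μM and lower only at 5 μM, with 6.35, 5.44 and 2.91 FPKM, changes of -0.22 and -1.10 on the log2 scale and a difference between the doses of -0.88 (-1.18 to -0.62). With the length trend removed TCTN3 was at -0.36 at 2.5 μM, past 0.25.
TMEM67, the membrane protein meckelin, had 6.44 FPKM under vehicle, 2.26 under 2.5 μM and 2.55 under 5 μM. Its log2 changes of -1.47 (-1.75 to -1.27) and -1.30 (-1.55 to -1.12) put it, with BBS12, past 1 in the lower direction at both doses. BBS12 passed the filter only through DMSO, whereas TMEM67 exceeded 1 FPKM in every library. CEP290 (ENSG00000198707, chromosome 12, 88049016 to 88142099), which links the microtubules of the transition zone to the membrane, had 2.65 FPKM under vehicle, 1.28 under 2.5 μM and 0.99 under 5 μM, a log2 change of -1.34 at 5 μM (-1.69 to -1.16, spread 0.60), and at 2.5 μM it lay just inside the limit of 1. Its transcript of 7824 bases is among the longest of the 36, and its change at 5 μM was -0.91 with the length trend removed.
NPHP4, of the NPHP module, was lower at 5 μM only, with 4.09, 3.53 and 2.16 FPKM and changes of -0.21 and -0.89 on the log2 scale. RPGRIP1L, a scaffold of the same gate, had 1.27 FPKM under vehicle, 0.52 under 2.5 μM and 0.81 under 5 μM, changes of -1.14 and -0.60 on the log2 scale, of which only the first exceeded its spread of 0.87. Its change at 5 μM was -0.16, within 0.25, with the length trend removed.
TMEM216 and MKS1 were the exceptions and were higher at 5 μM only. TMEM216, a small membrane protein, had 6.63, 6.75 and 10.8 FPKM, changes of 0.03 and 0.69 on the log2 scale where the spread was 0.30. MKS1, a protein with a B9 domain, had 5.05, 4.87 and 6.84 FPKM, changes of -0.05 and 0.43 on the log2 scale where the spread was 0.37. With the length trend removed their changes at 5 μM were 0.14 and 0.20, within 0.25, TMEM216 was lower at 2.5 μM, at -0.37, and the change of MKS1 at 5 μM was 0.06 with mitochondrial and small RNA genes left out of the scaling. CC2D2A, under the filter, had 0.25 FPKM under vehicle, 0.36 under 2.5 μM and 0.35 under 5 μM.

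The 38 genes did not share 1 order of the doses. FPKM was lower with each step from DMSO through 2.5 μM to 5 μM in 14 genes and higher with each step in 5, while 14 were lowest at 2.5 μM and 5 were highest there. The share of all genes in each order was not computed, so these counts do not set the 38 genes apart. Between 5 μM and 2.5 μM, 11 of 34 genes were higher, beside 26.8% of all and 22.2% of protein-coding genes, and 9 were lower, beside 30.1% and 27.1%, with a median difference of 0.01. Past 1 none was higher, beside 7.47% of all and 2.39% of protein-coding genes, and TRAF3IP1 alone was lower, beside 8.09% and 2.83%. The genes that differed most between the doses were TRAF3IP1, WDR19 and TCTN3 on the lower side and IFT140, IFT46 and ARL6 on the higher side.

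Transcript length moved with the changes. The 12 genes with the shortest canonical transcripts, 816 to 2704 bases, were at a median of 0.28 on the log2 scale at 5 μM, and the 12 with the longest, 4199 to 7935 bases, were at -0.89. In protein-coding genes of the same length ranges the medians at 5 μM were 0.33 and -0.30. For the 12 genes between them, 2850 to 4075 bases, the median was -0.41, where protein-coding genes of that range had -0.04. At 2.5 μM the medians of the short, middle and long genes were -0.11, -0.58 and -0.77, beside 0.23, 0.01 and -0.17 in protein-coding genes. Across the 36 genes the Spearman correlation of change and length was -0.46 at 5 μM and -0.42 at 2.5 μM, as a description, and -0.35 and -0.24 across protein-coding genes. Of the 12 longest, none was higher and 9 were lower at 5 μM, where 22.8% of protein-coding genes in that length range were higher and 52.8% lower. With the length trend removed 7 genes were higher and 20 lower at 5 μM, and 5 were higher and 22 lower at 2.5 μM, with medians of -0.30 and -0.36. Protein-coding genes then had medians of -0.03 and -0.02, and their shares were not computed. The part of length in single changes was not tested beyond these values.

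**Figure D4:**
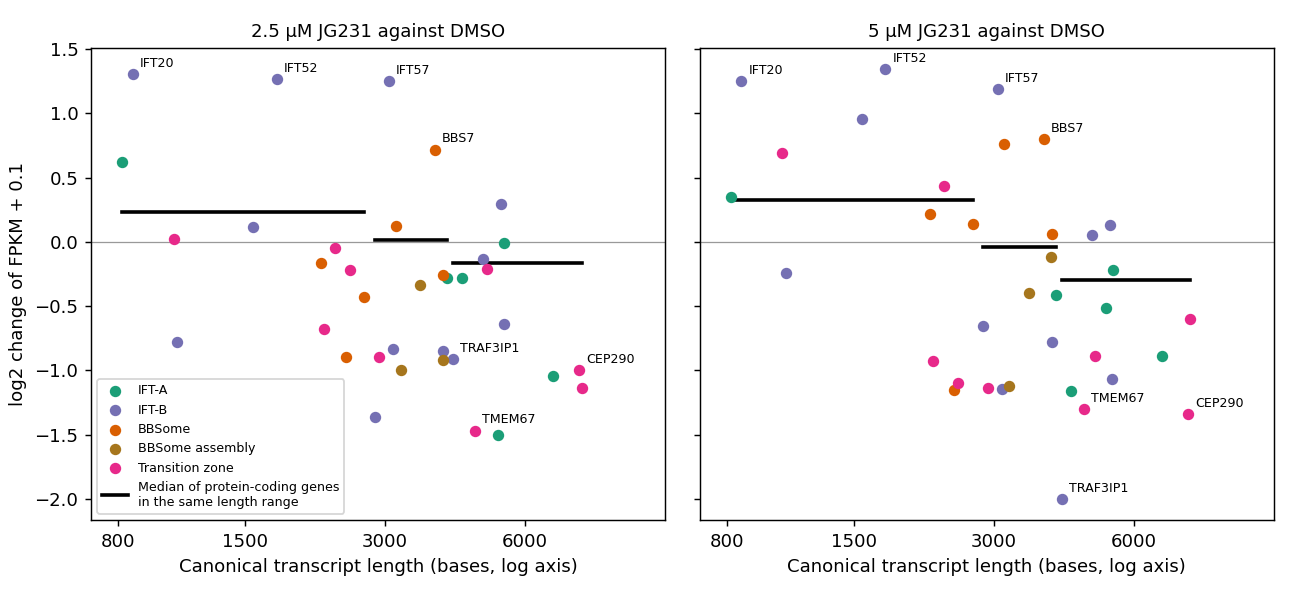
Log2 change of FPKM plus 0.1 against DMSO (2.5 μM left, 5 μM right) of the 36 genes by canonical transcript length (log axis), colored by complex, with black lines at the median of protein-coding genes in the same length ranges. At 2.5 μM the middle and long genes have medians of -0.58 and -0.77 beside lines at 0.01 and -0.17.

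The changes were then set beside the promoter letters shown above. The median of the 4 genes with an X-box was -0.67 at 5 μM and -0.48 at 2.5 μM, with 3 lower at each dose and none higher. The 27 tested genes without it had medians of -0.24 and -0.28, with 9 higher and 13 lower at 5 μM and 6 higher and 14 lower at 2.5 μM. Of the 13 tested genes with GTTGCC, 3 were higher and 6 lower at 5 μM, with a median of -0.24, and of the 18 without it 6 were higher and 10 lower, with a median of -0.55. At 2.5 μM the counts were 1 higher and 7 lower with GTTGCC (median -0.28) and 5 and 10 without it (median -0.36). The median was thus lower with the X-box and higher with GTTGCC than without. IFT20, IFT52 and IFT57 had neither. The RFX factors themselves were not uniform. RFX1 had 6.90 FPKM under vehicle, 11.6 under 2.5 μM and 11.5 under 5 μM, RFX2 had 2.0, 1.70 and 0.83, and RFX3, the family member best known for ciliary genes, had 2.23, 2.10 and 2.22, although with the length trend removed its change at 5 μM was 0.50.

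Other IFT and BBSome genes, not all of them subunits, were counted from a separate list of 8 genes. None was higher past 0.25, while 4 of 8 (5 μM, 50% beside 45.1% of all genes) and 6 of 8 (2.5 μM, 75% beside 43.4%) were lower, with medians of -0.25 and -0.40. At 2.5 μM 2 were higher and 5 lower once the length trend was removed. The closely related IFT-B genes TTC30A and TTC30B were lowest. TTC30A had 2.75 FPKM under vehicle, 0.50 under 2.5 μM and 0.79 under 5 μM, and TTC30B had 3.33, 1.26 and 1.22, and reads could be split between these near-identical copies. TTC26 had 3.43, 2.43 and 1.46 FPKM. The other end of the list was BBIP1 with 1.33, 0.82 and 1.39 FPKM, CLUAP1 with 2.16, 2.56 and 2.17 and LZTFL1 with 3.58, 4.27 and 3.52, all within 0.25 at 5 μM. HSPB11 had 13.9, 11.3 and 12.9 FPKM, changes of -0.31 and -0.11 on the log2 scale. Its canonical transcript has 685 bases, and with the length trend removed its changes were -0.78 and -0.79.
Of 10 motor genes over the filter, 1 was higher and 4 were lower at 5 μM (10% and 40%), and 3 were higher and 5 lower at 2.5 μM (30% and 50%). Once the length trend was removed, 1 was higher and 6 lower at 5 μM, and 1 was higher and 7 lower at 2.5 μM. KIF3B, a subunit of the kinesin that carries the trains outward, had 10.3 FPKM under vehicle, 7.27 under 2.5 μM and 4.6 under 5 μM, and its partner KIF3A had 6.80, 4.58 and 5.27, a change of -0.36 at 5 μM that was -0.02 with the length trend removed. WDR60, an intermediate chain of the return motor, had 2.17, 0.82 and 1.15 FPKM. DYNLRB1, a dynein light chain shared with other dyneins, was higher in both JG231 libraries, with 66.8, 118 and 151 FPKM. WDR34 had 89.7, 84.4 and 99.9 FPKM and the light chain DYNLL1 56.7, 43.7 and 61.4, which at 5 μM was 0.11 above DMSO on the log2 scale but at -0.58 with the length trend removed. DYNC2H1, the heavy chain of the return motor, stayed under 1 FPKM in every library.
Of 26 other genes of the transition zone, basal body and ciliary membrane traffic over the filter, 7 were higher and 13 lower at 5 μM (26.9% and 50%, beside 36.5% and 45.1% of all genes), and 8 were higher and 8 lower at 2.5 μM (30.8% each, beside 36.4% and 43.4%). Removal of the length trend left 7 higher and 11 lower at 5 μM, and 5 and 8 at 2.5 μM. CCP110, a cap on the end of the centriole, had 11.2, 5.05 and 4.52 FPKM. B9D2 and B9D1, partners of MKS1, were higher at 5 μM with 3.64, 5.59 and 7.74 FPKM and 2.34, 2.41 and 3.94 FPKM, although the change of B9D1 at 5 μM was 0.13 with the length trend removed, and the small GTPase RAB23 had 2.89, 4.59 and 5.35.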

How the data were processed

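The RNA-seq libraries of H660 cells under DMSO, 2.5 μM and 5 μM JG231 (24 h, 1 library each) were grouped by sample title. The authors deposited FPKM for 58735 Ensembl genes. The study's methods name a TopHat and Cufflinks pipeline, HISAT for alignment and StringTie, while the submitters' processing notes name HISAT2, featureCounts and GRCh38, so which tools made the table is not settled. Versions and annotation release are not given in the sources used here. The labels describe stranded libraries, and whether counting used strand is not stated.

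Identifiers were looked up in GENCODE release 44 (58207 found) for positions, canonical transcript length and exon length. The value of 1 fragment was read from the product of FPKM and exon length for single-transcript genes, where 84.7% to 88.5% of values under 50 fragments were whole within 0.05. Counting intervals (Clopper-Pearson, 95%) use the canonical length, chosen after the data were seen since it gives fewer fragments than the exon length. Fragments are approximate. No count test was run, since FPKM are not counts.

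Log2 changes used a pseudocount of 0.1, the filter of FPKM over 1 in either library and a threshold of 0.25. Every member was named. Full values were given for the 3 highest and 3 lowest of each complex and for those past 1. Values of some genes in the other lists are not reported here. The genes and lists were chosen with earlier results of these data known. Length trends were removed by lowess (fraction 0.3). Alternatives were pseudocounts of 1 and 0.01, other filters and scalings, a threshold of 1 and summed symbols. Scripts were tested on simulated data. Scripts ran in Python 3.11.15 with scipy 1.17.1 for intervals, statsmodels 0.14.6 for lowess, matplotlib 3.10.9 for plots, and pandas 2.3.3 on numpy 2.4.6. The other cell lines and assays of the study were not analysed here.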

Additional observations from a re-analysis of the deposited data

How the results depend on the processing

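With 1 library per condition, no replicate could be left out. No paired analysis was possible because each condition has only 1 library. Under every alternative for single genes (pseudocount, scaling, length trend, summed symbols), 6 genes stayed above 0.25 at 5 μM (IFT20, IFT46, IFT52, IFT57, BBS5 and BBS7) and 18 stayed below -0.25. Of these, BBS5 had passed the filter only through JG231, and BBS12 and CEP290 only through DMSO. At 2.5 μM, 4 stayed above (IFT20, IFT52, IFT57 and BBS7) and 18 below, among them BBS12, RPGRIP1L and IFT88, which had passed only through DMSO. The share of other genes that stayed so was not computed. With a threshold of 1, 3 were higher and 10 lower at 5 μM, and 3 were higher and 6 lower at 2.5 μM. A mean FPKM of at least 5 over the 3 libraries left 9 genes, of which 1 was lower at each dose. This filter keeps genes through their JG231 libraries too and drops those that are lower there, so the positive medians it gave say nothing about direction. They were 0.69 at 5 μM and 0.30 at 2.5 μM, where protein-coding genes moved to 0.22 and 0.21, 0.35 and 0.62 for IFT-A (IFT43 alone), 0.56 for the transition zone at 5 μM (TMEM216 and MKS1) and, for IFT-B (IFT57, IFT52, IFT20, IFT74 and IFT46), 1.19 at 5 μM and 1.25 at 2.5 μM. When mitochondrial and small RNA genes were left out of the scaling, the protein-coding median moved to -0.40 at 5 μM and -0.28 at 2.5 μM and that of the 36 genes to -0.78 and -0.60, so the genes remained below it. With this rescaling 7 were higher and 24 lower at 5 μM, and 5 and 28 at 2.5 μM. The shares over all genes were not computed under it, so these counts have no background to stand beside. Rescaling to a common sum moved the median difference between the doses to -0.17 and that of protein-coding genes to -0.20. IFT43 at 5 μM was -0.025 without mitochondrial and small RNA genes and -0.28 with the length trend removed, and the cause was not tested beyond these values. Pseudocounts of 1 and 0.01, no filter, centring on the median gene, removal of the length trend and summing of rows with the same symbol left the counts of higher and lower genes within 1.5 times and the 3 medians over all genes close to those given. By canonical length BBS1 and CC2D2A had 18 to 44 fragments per library, and the lowest library of IFT88 had 47, of BBS5 49 and of BBS12 53, which limits their precision.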

Other observations

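Readouts and regulators of the cilium were looked at beyond its structural genes. Hedgehog signalling, which in vertebrates depends on IFT, was little expressed in these cells. GLI1, GLI2, GLI3 and HHIP were at 0 in all 3 libraries. SMO, the receptor that enters the cilium when the pathway is active, had 2.84 FPKM under vehicle, 0.41 under 2.5 μM and 0.24 under 5 μM, changes of -2.53 and -3.11 on the log2 scale on 217, 40 and 28 fragments by exon length. GPR161, a ciliary receptor that restrains the pathway, had 6.76, 3.57 and 3.17 FPKM, and PTCH1 had 1.5, 0.80 and 1.0. All 4 Hedgehog genes over the filter (these and SUFU) were lower than DMSO at 2.5 μM past 0.25 (beside 43.4% of all genes) and 3 of 4 at 5 μM (beside 45.1%). SMO and PTCH1 passed the filter only through DMSO, so their direction was partly set by it. After removal of the length trend 2 of 4 were lower at 5 μM, PTCH1 being at -0.06, and all 4 at 2.5 μM.

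Transcription factors were counted from a list of RFX family members, whatever their role, and factors of the multiciliated program. Of 8 over the filter, 2 were higher (RFX1 and RFX7) and 4 lower at 5 μM (FOXJ1, MYB, RFX2 and RFX5), 25% and 50% beside 36.5% and 45.1% of all genes. At 2.5 μM 2 were higher and 2 lower (25% each, beside 36.4% and 43.4%). Without the length trend 3 were higher and 5 lower at 5 μM. RFX7 had 2.81, 6.05 and 3.91 FPKM. FOXJ1, the master factor of motile cilia, had 7.11 FPKM under vehicle, 4.40 under 2.5 μM and 4.74 under 5 μM, and MYB, which acts before it, had 9.97, 4.82 and 4.67. MCIDAS, which starts the multiciliated program, had 9.96, 10.6 and 9.06 FPKM, and its change at 5 μM was -0.13, or -0.41 with the length trend removed. The 5 multiciliated markers, FOXJ1 among them, summed to 10.9 FPKM under vehicle, 7.86 under 2.5 μM and 7.60 under 5 μM, most of it FOXJ1. DNAH5 had 1.32, 2.17 and 1.34 FPKM and RSPH1 1.87, 0.94 and 1.45, and TEKT1 was at 0 in all libraries. Of 7 genes of cilium disassembly over the filter, AURKA, the kinase best known for starting it, had 24.2, 23.1 and 23.5 FPKM, changes of -0.06 and -0.04 on the log2 scale that became -0.27 and -0.34 with the length trend removed. NEK2 had 22.4, 34.0 and 38.5 FPKM, PLK1 had 16.1, 18.2 and 23.4, HDAC6 had 6.64, 6.62 and 7.39, KIF24 had 3.48, 2.71 and 1.77, KIF2A had 8.25, 9.45 and 6.22, and TTK had 18.1, 18.2 and 13.9. At 5 μM, 2 of the 7 were higher past 0.25 (NEK2 and PLK1) and 3 were lower (28.6% and 42.9%, beside 36.5% and 45.1% of all genes), and the median was -0.04. At 2.5 μM 1 was higher (NEK2) and 1 lower (KIF24), 14.3% each beside 36.4% and 43.4%. Without the length trend 3 were higher and 3 lower at 5 μM, and 2 were higher and 1 was lower at 2.5 μM. KIF2A, lower at 5 μM by 0.40 on the log2 scale, was then at 0.04. NEDD9, under the filter, was listed at 0 under vehicle and had 0.10 FPKM under 2.5 μM and 0.18 under 5 μM.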
